A study of Mus musculus with 9 samples.

Results

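The mitochondrial ribosomal protein genes are the Mrpl and Mrps genes of the cell nucleus, which encode the proteins of the ribosome inside mitochondria. Probe sets with a single platform gene symbol made of Mrpl or Mrps and a number were taken, and for each gene the probe set with the highest mean over the 9 arrays was used. This gave 74 genes of the 12393 measured, 47 named Mrpl and 27 named Mrps, read by 127 probe sets in all. Structures of the ribosome place 49 of them in the large subunit, Mrps18a and Mrps30 among these, and 24 in the small subunit. Mrps36 counts with neither, because its product is now assigned to the 2-oxoglutarate dehydrogenase complex. Mrpl30, Mrpl53, Mrps10 and Mrps27 were not analysed here.

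The mitochondrial ribosome translates the few messenger RNAs encoded by mitochondrial DNA, all of which specify subunits of the respiratory chain and of ATP synthase. Its ribosomal RNAs come from mitochondrial DNA, whereas every protein is encoded in the nucleus, made in the cytosol and imported, so the protein genes have to be expressed in step with each other and with the mitochondrial genome. Some of its proteins descend from those of the bacterial ribosome and others are found only in mitochondria. In T cells, mitochondrial translation is known to be needed for respiration, proliferation and cytokine production, and regulatory T (Treg) cells are known to depend strongly on respiration.

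The arrays measured RNA of magnetically separated CD4+CD25+ Treg cells from mice of the C57Bl/6 background. CBP-deleted cells came from fl-CBP/Foxp3cre mice and p300-deleted cells from fl-p300/Foxp3cre mice, in which a Cre recombinase expressed from Foxp3 removes a floxed gene in cells that have expressed Foxp3. The control mice carry the genotype label Foxp3cre control, so the Cre allele is listed in all 3 groups, although the sample titles call them WT. Each group had 3 arrays from independent samples, and neither age nor sex is stated in the labels. CBP and p300 are related acetyltransferases of histones and other proteins that act as coactivators of transcription, and the study asked what Treg cells need each of them for.

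All values below are log2 signals, a difference of 1 being a doubling. Tests are those of limma fitted over all 12393 genes, with p-values adjusted for all of them and a threshold of 0.05. The number of arrays limits the precision, and the p-values measure the spread between these samples. The Crebbp gene, which encodes CBP, read 7.11 to 7.35 in the CBP-deleted, 7.48 to 7.67 in the p300-deleted and 7.36 to 7.67 in the control arrays, and its reading did not pass the test (adjusted p = 0.123, limma). Whether its probe set lies in the deleted stretch is not given in the sources used here, and the p300 gene was not analysed here. The probe set of Foxp3, the defining Treg gene, read 9.48 to 9.75 in controls, 2.73 to 2.97 in CBP-deleted and 2.58 to 3.19 in p300-deleted arrays. The log2 of the summed signal of 9 Treg markers, Foxp3 included, ran from 12.86 to 12.99 in CBP-deleted, 13.18 to 13.21 in p300-deleted and 13.03 to 13.18 in control arrays. The deletions and any difference in the Foxp3 or Cre allele between knockout and control mice cannot be told apart in the comparisons with the control.

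In the direct comparison of the knockouts, the mitochondrial ribosomal protein genes read higher in CBP-deleted than in p300-deleted cells, as a group and by a small amount each. Of the 74 genes, 69 had a higher mean in CBP-deleted cells, and the median difference was 0.24 (1.18-fold), against -0.02 over all genes, where 5689 of 12393 were higher. In 52 of the 74 (70.3%) every CBP-deleted array lay above every p300-deleted array, which was so for 15.8% of all genes. The reverse was found for 0 of the 74, against 14.4% of all genes. Of the single genes, 3 rose past the threshold, Mrpl20, Mrpl36 and Mrpl42, and 0 fell, against 3.20% and 2.01% of all genes, so the share of genes called (4.05%) was near the background. At an unadjusted limma p under 0.05 there were 36, all higher, against 1194 higher and 1078 lower of all 12393 genes. The shift is thus seen in how many genes moved the same way and in the unadjusted p-values. It is not seen in the share of genes past the adjusted threshold, and the single differences were small. These genes also moved together between arrays of the same group, their median deviation running from -0.20 to 0.22 within the controls. The genes are therefore not independent observations. The counts cannot tell an effect of the deletions from variation between arrays, and this was not tested.

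**Figure D1:**
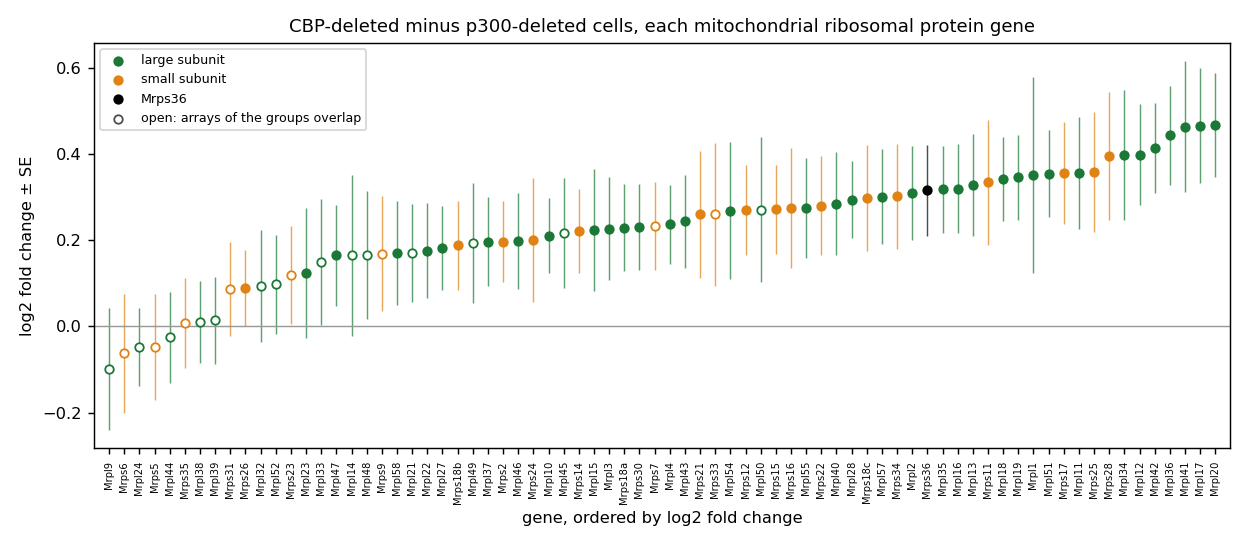
The log2 fold change of CBP-deleted against p300-deleted cells for each of the 74 genes, ordered by size, with bars of 1 limma standard error. Open circles mark genes whose arrays overlap between the groups. The points lie between -0.10 and 0.47, 69 of them above 0. Large subunit genes (green) are spread along the whole order. Small subunit genes (orange) run from -0.06 to 0.40, below the highest large subunit genes.

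Mrpl20 encodes a large subunit protein whose bacterial counterpart binds the ribosomal RNA early in assembly. It read 9.31, 9.29 and 9.50 in the CBP-deleted arrays, 8.77, 8.99 and 8.94 in the p300-deleted arrays and 8.97, 9.38 and 8.97 in the controls. The CBP-deleted arrays all lie above the p300-deleted ones, and only control replicate 2 reaches their range. The difference between the knockouts was 0.47 (SE 0.12, 1.38-fold, adjusted p = 0.0439, limma).

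Mrpl36 encodes a small large-subunit protein, also with a bacterial counterpart. Its values were 8.15, 8.19 and 8.27 in CBP-deleted, 7.72, 7.82 and 7.74 in p300-deleted and 7.93, 8.24 and 7.78 in control cells. The knockouts do not overlap, and the controls spread from one to the other. The difference was 0.44 (SE 0.115, 1.36-fold, adjusted p = 0.0454, limma).

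Mrpl42 encodes a large subunit protein found only in mitochondria. It read 9.22, 9.24 and 9.39 in CBP-deleted, 8.88, 8.91 and 8.83 in p300-deleted and 9.08, 9.39 and 8.999 in control cells. Every p300-deleted array was below every control and every CBP-deleted array. The difference was 0.41 (SE 0.11, 1.33-fold, adjusted p = 0.0425, limma).

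Leaving out any CBP-deleted or p300-deleted array ended these calls, with adjusted p of 0.0930 to 0.178 for Mrpl20, 0.105 to 0.168 for Mrpl36 and 0.0946 to 0.177 for Mrpl42 (limma), while the differences stayed between 0.36 and 0.51. The 3 genes passed in 8, 6 and 7 of 19 alternatives, and were lost among others with the 18S reading as covariate, with the array median subtracted and with no trend in the moderation. Leaving out control replicate 1 also ended the calls of Mrpl36 (adjusted p = 0.0582) and Mrpl42 (0.0521), through the estimate of the spread, which the controls share.

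The genes next in order of p did not pass. Mrpl17, at the exit of the tunnel through which the new chain leaves, differed by 0.47 (SE 0.13, adjusted p = 0.0675, limma), with p300-deleted arrays at 8.98, 8.95 and 8.98 and CBP-deleted arrays at 9.36, 9.37 and 9.57. Mrpl18 of the central protuberance differed by 0.34, Mrpl19 at the face between the subunits by 0.35, Mrpl51 by 0.36, Mrpl12 by 0.40, Mrpl28 by 0.29 and Mrpl35 by 0.32, with adjusted p of 0.0644 to 0.0960 (limma). In each of these 7 genes the CBP-deleted arrays were all above the p300-deleted ones.

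The promoters of these genes are shown because genes that shift together invite a look at what lies before their starts. Of the 74 genes, 65 matched the RefSeq promoter table of GRCm38.p6. Printed are the 150 bases before the start of Mrpl20, Mrpl36 and Mrpl42, of Mrpl17 and Mrpl51, which carry an NRF1 and an ETS match, and of Mrps31 and Mrpl1, which changed against the control. Capitals mark matches, on either strand, to CCGGAAG (ETS factors such as GABPA), GCGCATGC (NRF1), AAGATGG (YY1) and CACGTG (E-box, bound by Myc and Max). GABPA, NRF1 and YY1 are known regulators of nuclear genes for mitochondria.
Mrpl20 (chr4:155802728-155802877, plus strand): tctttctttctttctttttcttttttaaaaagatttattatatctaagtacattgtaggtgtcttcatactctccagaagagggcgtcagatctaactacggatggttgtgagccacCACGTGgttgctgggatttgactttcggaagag
Mrpl36 (chr13:73330859-73331008, plus strand): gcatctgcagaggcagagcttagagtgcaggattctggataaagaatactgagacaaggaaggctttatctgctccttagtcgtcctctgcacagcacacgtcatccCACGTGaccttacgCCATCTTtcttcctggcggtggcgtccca
Mrpl42 (chr10:95501950-95502099, minus strand): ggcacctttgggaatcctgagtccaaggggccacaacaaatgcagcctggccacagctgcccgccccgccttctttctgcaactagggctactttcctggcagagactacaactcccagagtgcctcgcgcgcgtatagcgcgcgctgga
Mrpl17 (chr7:105811088-105811237, minus strand): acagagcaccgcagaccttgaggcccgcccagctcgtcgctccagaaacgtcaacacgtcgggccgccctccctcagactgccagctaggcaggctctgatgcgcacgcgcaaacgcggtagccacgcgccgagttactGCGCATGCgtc
Mrpl51 (chr6:125192050-125192199, plus strand): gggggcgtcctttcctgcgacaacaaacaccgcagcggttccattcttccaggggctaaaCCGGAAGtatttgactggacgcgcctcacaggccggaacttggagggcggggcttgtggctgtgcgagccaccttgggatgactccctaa
Mrps31 (chr8:22411190-22411339, plus strand): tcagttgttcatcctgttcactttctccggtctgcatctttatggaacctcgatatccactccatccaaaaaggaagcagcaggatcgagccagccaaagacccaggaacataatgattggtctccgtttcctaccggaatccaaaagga
Mrpl1 (chr5:96209965-96210114, plus strand): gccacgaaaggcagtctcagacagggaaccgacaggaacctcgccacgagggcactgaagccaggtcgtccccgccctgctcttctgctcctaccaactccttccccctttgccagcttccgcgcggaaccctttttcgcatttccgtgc

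In these stretches Mrpl20 has an E-box 33 bases before the start, Mrpl36 a YY1 match at 29 and an E-box at 43 bases, Mrpl17 an NRF1 match at 11 and Mrpl51 an ETS match at 90 bases, counting to the first base of the match as printed. Mrpl42, Mrps31 and Mrpl1 hold none of the 4 motifs there, and neither do the same stretches of Mrpl18, Mrpl28 and Mrpl35, which are not printed. Over the whole window, 250 bases before to 50 after the start, the ETS motif was found in 24 of the 65 genes (36.9%). It was found in 16.4% of array genes with a promoter entry and 9.93% of all genes in the promoter table. A gene with several windows counted if any of them held a match. The corresponding shares were 12.3%, 5.01% and 3.05% for NRF1, 18.5%, 7.86% and 7.28% for YY1, and 7.69%, 10.8% and 8.09% for the E-box. At least 1 motif was present in 38 of the 65 (58.5%), against 33.8% of array genes.

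The difference between the knockouts was set beside the motifs. The median difference between the knockouts was 0.24 in the 24 genes with the ETS motif and 0.23 in the 41 without, and 0.23 both with (12 genes) and without (53 genes) the YY1 motif. It was 0.16 in the 8 genes with the NRF1 motif and 0.26 in the 57 without. The 5 genes with an E-box had a median of 0.31, ranging from 0.20 to 0.47, against 0.23 in the other 60. These are descriptions of letters in a window, not of binding.

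Many of these genes lie head to head with a neighbour. Of the 65, 21 (32.3%) have the start of a gene on the other strand within 500 bases upstream, against 14.8% of array genes with a promoter entry. Mrps11 and Mrpl46, of the small and the large subunit, share such a stretch, with starts 42 bases apart and none of the 4 motifs in the bases between them.
Mrps11 to Mrpl46 (chr7:78783090-78783130, plus strand): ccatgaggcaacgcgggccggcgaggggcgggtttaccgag

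Mrps11 differed between the knockouts by 0.34 and Mrpl46 by 0.20, and both had all CBP-deleted above all p300-deleted arrays. Apart from this pair, 13 of the head-to-head neighbours were measured, 8 of them were higher in CBP-deleted than p300-deleted cells, and their median difference was 0.13. Eme1, a subunit of a DNA-cutting enzyme that resolves recombination intermediates, was the only neighbour past the threshold, at 0.82 (adjusted p = 0.00848, limma), where its partner Mrpl27 differed by 0.18. Tcp1, a subunit of the cytosolic chaperonin, differed by 0.33 and its partner Mrpl18 by 0.34, neither past the threshold. Fau, which encodes a cytosolic ribosomal protein, differed by -0.04 and its partner Mrpl49 by 0.19.

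The shift was of like size in both subunits. The median difference between the knockouts was 0.23 in the 49 large subunit genes and 0.25 in the 24 small subunit genes. The arrays did not overlap in 35 (71.4%) and 16 (66.7%) of them, against 15.8% of all genes. Among 44 genes counted as having a bacterial counterpart the median was 0.27, with 34 (77.3%) not overlapping. Among 29 counted as found only in mitochondria it was 0.22, with 17 (58.6%). Mrps36 differed by 0.32 (SE 0.11, adjusted p = 0.116, limma), with CBP-deleted arrays at 8.33, 8.31 and 8.43 and p300-deleted arrays at 7.98, 8.15 and 7.98.

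The stalks of the large subunit carry transfer RNA out of the ribosome and recruit translation factors. Mrpl12, whose bacterial counterpart L7/L12 contacts those factors, read 9.66, 9.55 and 9.77 in CBP-deleted, 9.25, 9.34 and 9.19 in p300-deleted and 9.53, 9.94 and 9.49 in control cells. The p300-deleted arrays were the lowest 3 of the 9, and the CBP-deleted arrays lay within the control range. Mrpl10 and Mrpl11, at the base of that stalk, differed between the knockouts by 0.21 and 0.36, and Mrpl1 of the other stalk by 0.35. In these 4 genes the CBP-deleted arrays were all above the p300-deleted arrays on the probe sets used, and none passed the test (adjusted p = 0.0771 to 0.464, limma). A second probe set of Mrpl1 differed between the knockouts by 0.03, with overlapping arrays.

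Around the tunnel exit and in the central protuberance the differences were smaller. The 9 exit genes had a median of 0.17, and they ran from -0.05 for Mrpl24 to 0.47 for Mrpl17. In 5 of them (55.6%) the arrays did not overlap, against 15.8% of all genes. Mrpl45, which tethers the ribosome to the inner membrane, differed by 0.22 with overlapping arrays, and Mrpl4, which lines the tunnel, by 0.24. The 8 protuberance genes had a median of 0.19, with 5 (62.5%) not overlapping, from 0.01 for Mrpl38 to 0.34 for Mrpl18. Mrpl58, a peptidyl-tRNA hydrolase that rescues stalled ribosomes, differed by 0.17.

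The Mrps18 paralogs stem from 1 bacterial protein, and Mrps18a has its place in the large subunit. Only Mrps18c was counted above with the genes that have a bacterial counterpart. Mrps18a and Mrps18b were counted with those found only in mitochondria. Mrps18a, Mrps18b and Mrps18c differed between the knockouts by 0.23, 0.19 and 0.30, each without overlap. Against the control they were higher in CBP-deleted cells by 0.23, 0.22 and 0.25, and in p300-deleted cells the differences were 0.00, 0.03 and -0.05. The 3 paralogs had like values, and none passed the test in any comparison (adjusted p = 0.214 to 0.986, limma).

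The 5 genes that were lower in CBP-deleted than in p300-deleted cells differed by little. Mrpl9 differed by -0.10, Mrps6 by -0.06, Mrpl24 and Mrps5 by -0.05 each and Mrpl44 by -0.03, all with overlapping arrays and adjusted p of 0.780 to 0.933 (limma).

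Against the controls, the genes read higher in CBP-deleted cells, less evenly. The median difference was 0.14 (1.10-fold), against -0.03 over all genes, and 65 of the 74 were higher. The 3 genes Mrps31, Mrpl1 and Mrpl19 rose past the threshold and 0 fell, against 2.14% and 2.79% of all genes. In 11 genes every CBP-deleted array was above every control, against 10% of all genes, so the count of genes without overlap was near the background here. Only Mrpl38, a protuberance protein, had every CBP-deleted array below every control, against 14.5% of all genes. At an unadjusted limma p under 0.05 there were 17 genes, all higher, against 1132 higher and 1390 lower of all 12393 genes.

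Mrps31 encodes a small subunit protein found only in mitochondria. It read 7.03, 6.86 and 7.06 in CBP-deleted, 6.99, 6.91 and 6.77 in p300-deleted and 6.37, 6.57 and 6.51 in control cells. Both knockouts lie above all controls and overlap each other. The difference from the control was 0.50 (SE 0.11, 1.41-fold, adjusted p = 0.0270, limma) for CBP-deleted cells and 0.41 (SE 0.11, adjusted p = 0.0569) for p300-deleted cells.

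Mrpl1 encodes the protein of the stalk that helps spent transfer RNA leave. It read 6.80, 6.86 and 7.10 in CBP-deleted, 6.62, 6.64 and 6.44 in p300-deleted and 5.28, 6.19 and 6.37 in control cells. Both knockouts lie above the controls, among which replicate 1 is far below the other two. The difference was 0.97 (SE 0.23, 1.96-fold, adjusted p = 0.0344, limma) for CBP-deleted cells, and 0.62 (SE 0.23, adjusted p = 0.161) for p300-deleted cells.

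Mrpl19 read 8.43, 8.34 and 8.54 in CBP-deleted, 8.05, 8.18 and 8.05 in p300-deleted and 7.99, 8.20 and 7.94 in control cells. On this probe set the CBP-deleted arrays lie above all others, and the p300-deleted arrays overlap the controls. The difference from the control was 0.39 (SE 0.10, 1.31-fold, adjusted p = 0.0429, limma). The other probe sets of Mrpl19 differ from this. One gave 0.99 for CBP-deleted and 0.56 for p300-deleted cells against the control (adjusted p = 0.00475 and 0.0416 over all probe sets, limma), with p300-deleted arrays at 6.94 to 7.14 all above controls at 6.40 to 6.67. The dimmest, at 1.92 to 2.43, gave 0.01 and -0.20.

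Mrps31, Mrpl1 and Mrpl19 passed in 12, 11 and 6 of 19 alternatives (limma). Leaving out any CBP-deleted array or control replicate 1 ended the calls. The adjusted p without 1 CBP-deleted array was 0.0637 to 0.125 for Mrps31, 0.0889 to 0.140 for Mrpl1 and 0.0920 to 0.190 for Mrpl19, and without control replicate 1 it was 0.0963, 0.0544 and 0.124, with Mrpl1 then at 0.64. The call of Mrpl1 was also lost without p300-deleted replicate 2 (0.0544), and that of Mrpl19 without control replicate 3 (0.0593) or any p300-deleted array (0.0609 to 0.0645).

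**Figure D2:**
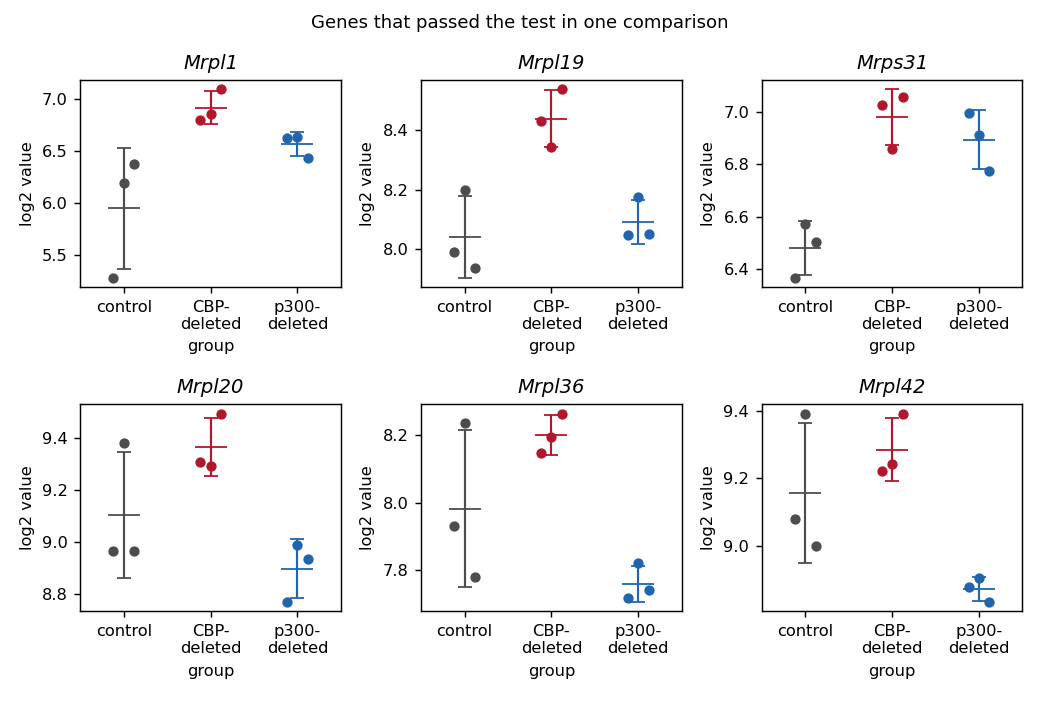
Log2 values of the 6 genes that passed the test, by group, with the points of the 3 arrays, the mean and the SD. Mrpl1, Mrpl19 and Mrps31 (top) passed in CBP-deleted cells against controls, Mrpl20, Mrpl36 and Mrpl42 (bottom) between the knockouts. In the bottom row the highest control point, replicate 2, lies level with the CBP-deleted arrays.

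The genes next in order of p against the control were Mrps35, a mitochondria-only protein of the small subunit, at 0.40 (adjusted p = 0.0510, limma), Mrpl48 at 0.56 (0.0554), Mrpl21 at 0.40 (0.0727), Mrps30 at 0.31 (0.0962), Mrpl13 at 0.35 (0.112), Mrpl18 at 0.29 (0.116) and Mrpl16 at 0.29 (0.129). Mrps35 read 8.14, 8.17 and 8.23 in CBP-deleted, 8.22, 8.20 and 8.09 in p300-deleted and 7.61, 7.99 and 7.72 in control cells, so both knockouts lie above all controls, as for Mrps31 and Mrpl1. These 3 genes are the only ones of the 74 in which both did. At the other end Mrpl52 was level with the control in CBP-deleted cells (0.00) and differed by -0.10 where p300 was deleted.

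In p300-deleted cells the genes read slightly lower than in the controls, and 0 passed the test in either direction, against 2.02% of all genes higher and 2.04% lower. At an unadjusted limma p under 0.05 there were 4 higher and 5 lower, against 1030 higher and 1274 lower of all 12393 genes. The median difference was -0.08, against -0.02 over all genes, and 20 of the 74 were higher. Every p300-deleted array was above every control in 3 genes, Mrps31, Mrps35 and Mrpl1, against 8.76% of all genes. Every one was below in 8 genes, against 11.5% of all genes.

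Mrpl12 had the largest negative difference, -0.39 (SE 0.12, adjusted p = 0.0885, limma). Mrpl28 differed by -0.29, Mrpl42 by -0.28, Mrpl4 by -0.28 and Mrpl51 by -0.28, with adjusted p of 0.0992 to 0.164 (limma). Mrps12, whose bacterial counterpart S12 lies in the decoding centre, differed by -0.23. In the p300-deleted arrays Mrps12 read 8.51, 8.51 and 8.49, below controls of 8.64, 8.98 and 8.58. Mrps35 (0.39, adjusted p = 0.0598) and Mrpl48 (0.39, 0.176) went the other way.

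**Figure D3:**
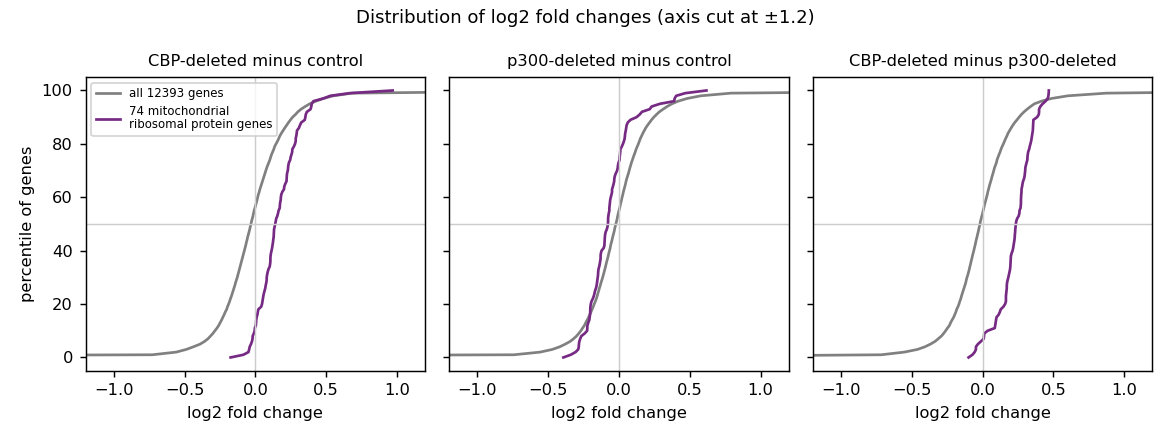
Percentile of genes (vertical axis) against log2 fold change (horizontal axis) for the 74 mitochondrial ribosomal protein genes (purple) and all 12393 genes (grey), in the 3 comparisons, cut at 1.2 either side of 0. The purple line lies to the right of the grey line for most genes in both comparisons of CBP-deleted cells, crossing it at the highest values, and to its left at the median and upper quartile for p300-deleted cells against the control.

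The order of the group means was CBP-deleted above control above p300-deleted in 46 of the 74 genes. Both knockouts were above the control in 19 and both below it in 8, and 1 gene had the opposite order. Both comparisons with the control use the same 3 control arrays, so their values for a gene are not independent.

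The control arrays varied most among themselves. The median SD of the 74 genes was 0.23 within the controls, against 0.0987 within the CBP-deleted arrays and 0.0739 within the p300-deleted ones. Over all genes it was 0.16, 0.10 and 0.11. As the median over the 74 genes of each array's deviation from the gene's mean, the controls stood at -0.10, 0.22 and -0.20, the CBP-deleted arrays at 0.12, 0.07 and 0.23 and the p300-deleted arrays at -0.15, -0.05 and -0.11.

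Control replicate 2 therefore read like a CBP-deleted array for these genes, and controls 1 and 3 like p300-deleted ones. It was above both other controls in 67 of the 74, against 40.3% of all genes, and it was the highest of all 9 arrays in 35. Control replicate 3 was the lowest of all in 30. In 58 genes all CBP-deleted arrays were above controls 1 and 3, against 19.0% of all genes. That count leaves out the control array that was high in these genes, so it is not on equal terms with the share of all genes.

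Without control replicate 2, 23 of the 74 genes passed the test for CBP-deleted against control cells (limma), with 7.21% of all genes called in either direction and a median of 0.28. The median of p300-deleted against control cells then turned from -0.08 to 0.04, and 3 genes passed, with 4.29% of all genes called. Without control replicate 3 instead, the medians were 0.06 and -0.16. The position of these genes in the controls, between the knockouts, thus rests on which control arrays are used. The difference between the knockouts does not use the control values, so leaving out a control cannot change it. Its median was 0.21 to 0.27 when any 1 array was left out. The count of genes called between the knockouts, 3, became 22 without control replicate 2 (8.40% of all genes called in either direction) and 8 without control replicate 3 (7.96%).

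**Figure D4:**
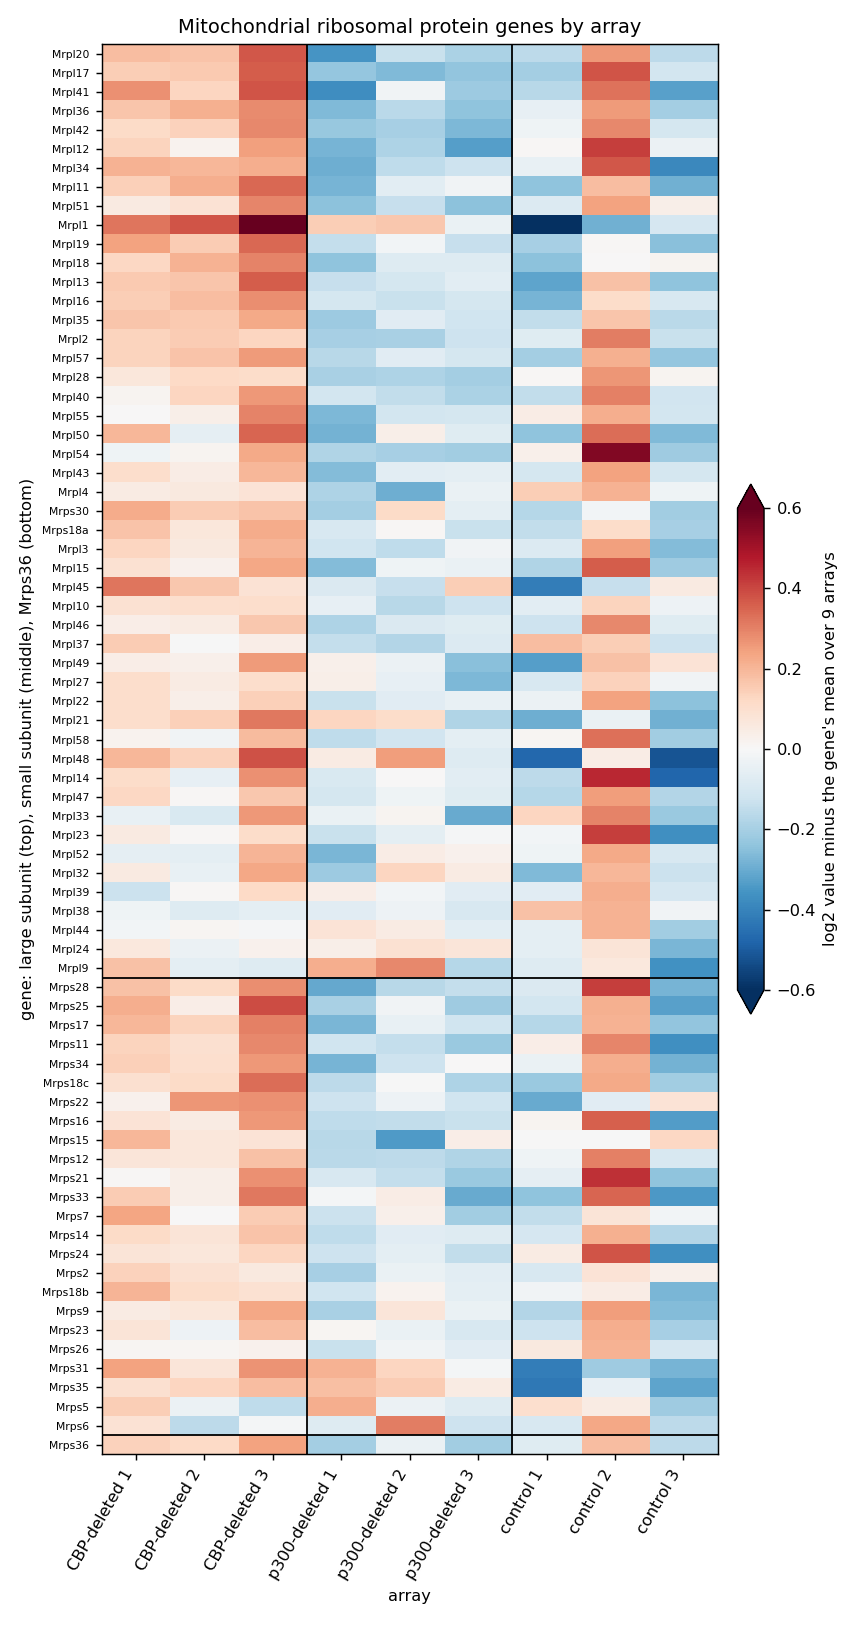
Log2 value minus the gene's mean over 9 arrays, as a colour from -0.6 to 0.6, for the 74 genes (vertical) in each array (horizontal), with the large subunit on top, then the small subunit and Mrps36. The CBP-deleted columns are mostly red and the p300-deleted columns mostly blue, while control 2 is red and controls 1 and 3 are blue.

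The readings of further probe sets bear on single genes. Of the 74 genes 33 had several, with 53 probe sets not used above. Of these, 26 in 19 genes had means above the median of all genes (6.22). Among the 26, the difference between the knockouts had the sign of the probe set used in 24, was positive in 22 and had a median of 0.22. Over all 53, dim ones included, it had the same sign in 39, was positive in 37 and had a median of 0.14. For p300-deleted against control cells, 27 of the 53 were positive and the median was 0.00, against -0.08 for the probe sets used. The other probe set of Mrpl42, at 2.18 to 2.67 in every array, gave 0.06. A second probe set of Mrpl1 gave 0.66 for CBP-deleted against control cells (adjusted p = 0.0945 over all probe sets, limma). It gave 0.63 for p300-deleted against control cells and 0.03 between the knockouts. The dimmest probe set of Mrpl1, at 2.93 to 3.30, gave -0.09 for CBP-deleted against control cells. Mrpl51 has 2 dimmer probe sets, with differences between the knockouts of -0.10 and -0.32. The dimmer probe sets of Mrpl17 (3.49 to 3.89) and Mrpl35 (4.23 to 4.65) gave -0.20 and -0.07, and with the mean of a gene's probe sets these genes differed by 0.13 and 0.12 (adjusted p = 0.625 and 0.618, limma).

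Other parts of the mitochondrial gene expression machinery were set beside these genes by counts. Proteins of the mitochondrial ribosome with other names, listed with Oxa1l, an insertase of the inner membrane, shared the direction. All 5 measured were higher in CBP-deleted than in p300-deleted cells, with a median of 0.28, and 0 passed. Ptcd3 and Chchd1 of the small subunit differed by 0.28 and 0.31, and Gadd45gip1 by 0.28. Dap3 and Oxa1l lay near 0, at 0.06 and 0.03. The factors that assemble the mitochondrial ribosome did not share it, with 7 of 16 higher, a median of -0.03 and 0 called.

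Of 9 factors of mitochondrial translation and messenger RNA stability, 2 rose in CBP-deleted against p300-deleted cells (22.2%, against 3.20% of all genes). C1qbp, a matrix protein needed for mitochondrial translation, differed by 0.42 (adjusted p = 0.0109, limma) and Lrpprc, which stabilises mitochondrial messenger RNAs, by 0.40 (adjusted p = 0.0343). The median of the 9 was 0.22. The 11 mitochondrial tRNA synthetases had a median of 0.15 and the 14 genes for mitochondrial DNA maintenance and transcription 0.10, with 0 called in either list. Tfam, the packaging and transcription factor of mitochondrial DNA, differed by -0.01.

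The import machinery, which brings these proteins into the mitochondrion, showed a like shift with more calls. Of the 24 genes in this list 23 were higher in CBP-deleted than p300-deleted cells, with a median of 0.29. In 17 (70.8%) the arrays did not overlap, against 15.8% of all genes. The 5 that rose (20.8%, against 3.20% of all genes) were Timm8a1 (0.62), Timm50 (0.49), Hspe1 (0.44), Tomm40 (0.41) and Timm23 (0.35), with adjusted p of 0.0114 to 0.0489 (limma). Hspe1, counted in this list, encodes a matrix co-chaperonin that helps fold proteins and is not itself an import component. Timm8a1, a small carrier of the intermembrane space, read 8.87, 8.91 and 8.92 in CBP-deleted, 8.11, 8.38 and 8.36 in p300-deleted and 8.43, 8.87 and 8.51 in control cells. Against the control 2 genes of the list rose in CBP-deleted cells (8.33%, against 2.14% of all genes). They were Hspe1 (0.46) and Pmpcb, the beta subunit of the mitochondrial processing peptidase (0.49), with adjusted p = 0.0437 and 0.0288 (limma).

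Cytosolic ribosomal protein genes lay nearer to 0. Their median was 0.04 over 49 genes, with 12 not overlapping (24.5%, against 70.3% of the mitochondrial ones and 15.8% of all genes), and Rps27l, a paralog regulated by p53, was the only one that rose (0.58, adjusted p = 0.0201, limma). Factors that build the cytosolic ribosome in the nucleolus were all higher in CBP-deleted than p300-deleted cells, 19 of 19, with a median of 0.31. Wdr12 (0.72), Nop56 (0.40) and Gnl3 (0.31) rose (adjusted p = 0.00404 to 0.0371, limma), and Bop1, Nolc1 and Nop56 fell in p300-deleted against control cells by 0.42, 0.39 and 0.30 (adjusted p = 0.0451 to 0.0478, limma). The 3 that rose were 15.8% of the list, against 3.20% of all genes. In p300-deleted against control cells 2.04% of all genes fell.

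The known regulators of such genes read mostly the other way. Of 15, 4 were higher in CBP-deleted than p300-deleted cells, with a median of -0.11, and Sp1, a general activator of promoters rich in G and C, fell by 0.49 (adjusted p = 0.0425, limma). Against the control, Sp1 in CBP-deleted cells fell by 0.55 and Max, the partner of Myc, rose by 0.55 (adjusted p = 0.0304 and 0.0270, limma), and Max rose by 0.81 in p300-deleted cells (0.00799). Myc itself differed by -0.29 and -0.44 in the CBP and p300 deletions (adjusted p = 0.367 and 0.169, limma). Gabpa differed from the control by 0.53 and 0.50 (adjusted p = 0.0549 and 0.0766, limma), and Nrf1 by -0.12 and 0.07. The transcript of a regulator does not give its activity.

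Cell division genes differed in the same direction between the knockouts and by more. Of 22 cell cycle genes 20 rose in CBP-deleted against p300-deleted cells (90.9%, against 3.20% of all genes), with a median of 1.05. Against the control 13 fell in p300-deleted cells, where 2.04% of all genes fell. Within the controls the orders were opposite. The cell cycle list stood at 0.05, -0.21 and 0.58 in controls 1 to 3, where the mitochondrial ribosomal protein genes stood at -0.10, 0.22 and -0.20. Their part in the difference between the knockouts was not tested.

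**Figure D5:**
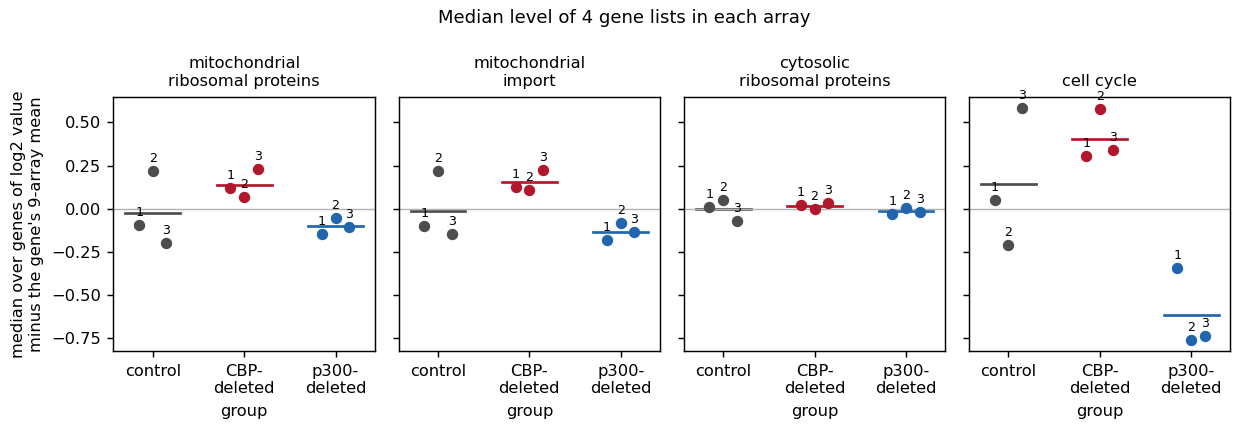
Median over the genes of a list of the log2 value minus the gene's 9-array mean (vertical axis), for each array (points, numbered by replicate) with the group mean (line), for 4 lists. Mitochondrial ribosomal protein and import genes show the same order of arrays within the controls, with replicate 2 on top, cytosolic ribosomal proteins stay between -0.08 and 0.05, and cell cycle genes have control 2 lowest among the controls.

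Markers of other cells differed between the groups too, and a lower share of a cell type and less RNA per cell cannot be told apart in such samples. Plasma cell markers fell in 4 of 5 genes in CBP-deleted against p300-deleted cells, and the log2 of their summed signal ran from 12.21 to 12.60 in CBP-deleted, 13.25 to 13.50 in p300-deleted and 12.24 to 12.57 in control arrays. Myeloid markers, 11 measured, had 0 called between the knockouts, rose in 2 genes in p300-deleted against control cells, and summed to 9.44 to 12.19, 9.73 to 11.78 and 8.17 to 9.43 in that order, with the highest medians in p300-deleted replicate 1 and CBP-deleted replicate 3. B cell markers, 7 measured, summed to 8.93 to 9.48, 9.25 to 9.98 and 9.81 to 10.01, and 3 of them fell in CBP-deleted against control cells. CD8 and NK cell markers, 6 measured, summed to 9.42 to 10.06, 10.19 to 10.29 and 9.38 to 9.65. Erythroid markers, 2 measured, summed to 4.69 to 4.89, 4.76 to 5.26 and 5.22 to 6.24. The scale has no true 0, so none is given as absent. Of these CD8 and NK markers 2 rose in CBP-deleted cells, Cd8b1 (0.74) and Gzmk (1.03), and Ncr1 rose where p300 was deleted (1.43), each against the control (limma). Of 7 T cell markers, 3 rose with p300 deleted, Cd4 (0.66), Cd2 (0.48) and Cd3g (0.28), and between the knockouts Cd5 fell by 0.46 in CBP-deleted cells (adjusted p = 0.00886, limma). Of 9 Treg markers 8 had lower means in CBP-deleted than p300-deleted cells, and Gpr83, Izumo1r and Ikzf4 fell by 0.87, 0.78 and 0.63 (adjusted p = 0.00169 to 0.0213, limma). The part of these markers in the shift of the mitochondrial ribosomal protein genes was not tested.

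A reading of ribosomal RNA, which does not measure RNA integrity, differed between arrays as well. The 18S ribosomal RNA control probe sets averaged 5.83, 6.20 and 8.88 in the controls, 7.39 to 7.999 in CBP-deleted and 7.88 to 9.62 in p300-deleted arrays. With this reading as a covariate, the median difference was 0.22 between the knockouts, 0.17 above the controls in CBP-deleted cells and -0.02 for p300-deleted cells, and the genes called were 1, 0 and 0 (limma).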

How the data were processed

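RNA was isolated with RNeasy, and 100 ng was amplified and labelled with biotin, per the labels' protocols. The values are the authors' deposited log2 signals, 1 per probe set and array, summarised with RMA per the submitters' processing notes; its version and settings are not given in the sources used here. They were used as deposited. The table has 22690 probe sets, of which 64 are controls, 20380 carry 1 gene symbol in the platform annotation, 691 several and 1555 none; only the single-symbol ones were used, and 24 gene identifiers had no match in RefSeq (GRCm38.p6). Arrays have no depth.

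limma 3.58.1 in R 4.3.3 fitted 1 mean per group over all 9 arrays, with moderation following a trend on mean level, two-sided, with Benjamini-Hochberg adjustment over 12393 genes at 0.05. The procedure was tested on simulated data. Correlations between arrays of a group were 0.990 to 0.997, and 0 arrays were identical. The genes and gene lists were chosen with earlier results of these data known. Named in each comparison are genes past the threshold, those of lowest p up to 10, the stalk and Mrps18 genes, Mrps36, Mrpl52 and Mrpl1; other genes named were chosen after their values were seen. Alternatives were other probe set choices, scalings and filters, no trend, array weights, the 18S reading as covariate, fits of 2 groups, a replicate block and leaving out each array.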

Additional observations from a re-analysis of the deposited data

Results flagged for a closer look

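In 3 genes the CBP-deleted and p300-deleted cells differed from each other in a direct test: Mrpl20 by 0.468, Mrpl36 by 0.444 and Mrpl42 by 0.414 on the log2 scale, higher in CBP-deleted than in p300-deleted cells in all 3 arrays of each (limma, adjusted p = 0.0439, 0.0454 and 0.0425). They are 4.05% of the 74 genes, near the 3.20% of all genes that rose. Leaving out any CBP-deleted or p300-deleted array ended each call (adjusted p = 0.0930 to 0.178, limma).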

How the results depend on the processing

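The median of the 74 genes kept its sign under all 20 alternatives for CBP-deleted against p300-deleted (0.21 to 0.27) and CBP-deleted against control cells (0.06 to 0.28), and for p300-deleted against control cells under 19 of 20. Leaving out 1 array moved this last median from -0.16 to 0.039. Some alternatives cannot change a difference, only its p-value. These are no trend, the replicate block, fits of 2 groups, leaving out dim genes and leaving out an array of the group not compared. The counts of genes past the threshold (3 for CBP-deleted and 0 for p300-deleted cells, each against the controls, and 3 between the knockouts, in this order below) depend on the settings. Leaving out 1 array gave 0 to 23, 0 to 3 and 0 to 22. Array weights gave 17, 5 and 22, where 14.2%, 8.30% and 11.8% of all genes passed, fits of the 2 groups alone 0, 0 and 28 (11.2% of all genes for the last), and the 18S covariate 0, 0 and 1. Between the knockouts 0 passed with the array median subtracted, with the mean of a gene's probe sets, with every probe set alone and with no trend (limma). The main setting had 36 at an unadjusted limma p under 0.05, against 2272 of all 12393 genes. For p300-deleted against control cells 1 passed with every probe set alone, with quantile normalisation, without _x_at and _s_at probe sets and without dim genes. The numbers 1 to 3 are not known to pair the arrays: deviations of same-numbered arrays correlated at -0.23 to 0.27, over 0.1 in 2 of 9 pairs. With the replicate block 1, 0 and 0 genes passed.

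Some differences near 0 changed sign. For CBP-deleted against control cells, Mrpl12 was at -0.012 with the median subtracted, -0.020 with quantile normalisation and -0.077 to 0.15 without 1 array, and Mrpl52 at 0.005 with the 18S covariate, 0.006 with array weights, 0.022 with the mean of probe sets and -0.091 to 0.092 without 1 array. For p300-deleted against control cells, Mrpl11 was at 0.046 with the 18S covariate, 0.074 with array weights, 0.029 with the mean of probe sets and -0.094 to 0.143 without 1 array, Mrps18a at -0.026 with the median subtracted and -0.055 to 0.098 without 1 array, Mrps18c at 0.049 with array weights and -0.126 to 0.099 without 1 array, Mrps18b at -0.061 to 0.098 and Mrpl52 at -0.167 to 0.001 without 1 array. Between the knockouts Mrpl51 was at -0.019 with the mean of probe sets, and Mrpl52 at -0.005 to 0.154 without 1 array. The cause was not tested. The alternatives for the count of 52 genes without overlap were chosen after seeing the data: it was 48 with the mean of probe sets, 50 without _x_at and _s_at probe sets, 52 with the median subtracted and 53 to 59 without 1 array, where 18.9% to 21.0% of all genes did not overlap.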
